A study of Mus musculus with 24 samples.

Results

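Meningeal and mesenchymal transcripts were examined in embryonic mouse brain through 10 genes, *Ptgds*, *Col1a1*, *Col1a2*, *Col3a1*, *Foxc1*, *Foxc2*, *Foxd1*, *Twist1*, *Lum* and *Dcn*, out of 54446 gene identifiers counted. The genes are markers of the meninges and of mesenchyme from neural crest or mesoderm. They were selected on the CPM values of these same libraries as well, in particular on the high level of such transcripts in 1 mutant library (female DMH mutant 3). The values of that library are therefore given as a description, with no test. The study asked which genes depend on *Tfap2b*, the gene of the transcription factor AP-2β, in the developing brain. RNA was sequenced from the secondary prosencephalon (SP) and from the diencephalon, midbrain and hindbrain (DMH) of 12 embryos at E14.5, with 3 replicates for each sex, genotype and area, so 24 libraries. Controls were *Tfap2b*+/+ littermates, and mutants were *Tfap2b*-/- embryos that carry a PGK-neo cassette in an exon of *Tfap2b* in all cells. All embryos came from crosses of heterozygous parents, and RNA came from the dissected pieces of tissue.

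The meninges are the connective tissue layers around the brain, and their fibroblasts come from cranial neural crest over the forebrain and from mesoderm further back. They lay down fibrillar collagens and proteoglycans and secrete signals to the neural tissue below. *Foxc1* and *Foxc2*, forkhead transcription factors, are needed for skull and meningeal development, *Foxd1* and *Twist1* mark mesenchymal progenitors, and *Ptgds* encodes prostaglandin D2 synthase, an enzyme and carrier that meninges and choroid plexus release into cerebrospinal fluid.

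All 10 genes were detected in each of the 24 libraries and passed the filter on low counts in each comparison. Library depth was 24.7 to 66.8 M fragments counted on genes, and the lowest count of any of the 10 genes was 22 fragments, for *Foxc2* in male SP mutant 3. Levels are given as CPM, counts per 1 M fragments after TMM normalization over the 24 libraries. Of the area markers, *En1*, a midbrain and hindbrain gene, was at 22.4 to 46.2 CPM in DMH and at most 0.105 CPM in SP. *Tfap2b* was at 277 to 438 CPM in DMH controls and 50.5 to 55.6 CPM in DMH mutants, which matched the labels. In SP it was at 3.53 to 4.20 CPM in controls and 2.78 to 4.90 CPM in mutants, so it did not separate the genotypes there. A pair of libraries stood apart in the genes described here. In female DMH mutant 3 the summed level of the 10 genes was 3138 CPM, against 723 to 1233 CPM in the other 11 DMH libraries. In male SP mutant 3 it was 139 CPM, against 454 to 681 CPM in the other 11 SP libraries. Both libraries of female mutant 3 were left out of the fits, so mutant groups hold 2 female and 3 male embryos. Male SP mutant 3 stayed in, and SP results are given with and without it. Caudal *Hox* genes, expressed behind the rostral hindbrain, summed to at most 11.3 CPM in 4 DMH libraries (female control 1, female mutants 1 and 2, male mutant 2) and to at least 320 CPM in the other 8. Both libraries of female control 2 carried Y-linked transcripts, against their label. They were kept as labelled, so the female controls may include a male embryo, and without it 0 of the 10 genes were called in female SP or female DMH.

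Promoter sequence from RefSeq (GRCm38.p6) was found for 6 of the 10 genes, *Ptgds*, *Col1a2*, *Col3a1*, *Foxc1*, *Foxd1* and *Twist1*. The 150 bases before the RefSeq start are printed 5′ to 3′ for the 4 of them that were higher in DMH than in SP controls, and for *Foxc1*, which was not called, because these are genes whose levels are compared between areas. Capitals mark matches on either strand to the AP-2 motif GCCNNNGGC, to TATAAA and to CCAAT.
*Ptgds*, chr2:25469750-25469899, minus strand: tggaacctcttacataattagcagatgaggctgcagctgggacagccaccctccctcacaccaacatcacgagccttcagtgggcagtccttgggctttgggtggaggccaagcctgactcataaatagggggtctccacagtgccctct
*Col1a2*, chr6:4505468-4505617, plus strand: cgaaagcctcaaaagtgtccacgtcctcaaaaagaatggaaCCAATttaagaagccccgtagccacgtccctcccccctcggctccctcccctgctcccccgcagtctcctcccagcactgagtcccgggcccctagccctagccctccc
*Col3a1*, chr1:45311388-45311537, plus strand: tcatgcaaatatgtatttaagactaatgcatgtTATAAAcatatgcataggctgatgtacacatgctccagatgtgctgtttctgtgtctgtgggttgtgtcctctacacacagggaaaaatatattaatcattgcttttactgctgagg
*Twist1*, chr12:33957521-33957670, plus strand: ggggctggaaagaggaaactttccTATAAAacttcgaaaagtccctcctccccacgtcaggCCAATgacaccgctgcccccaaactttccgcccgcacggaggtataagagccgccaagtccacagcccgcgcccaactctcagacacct
*Foxc1*, chr13:31806496-31806645, plus strand: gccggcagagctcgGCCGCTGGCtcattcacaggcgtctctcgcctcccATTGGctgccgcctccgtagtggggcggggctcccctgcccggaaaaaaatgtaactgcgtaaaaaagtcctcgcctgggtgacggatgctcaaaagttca
In the 250 bases before the start, the AP-2 motif was found in 1 of the 6 genes, *Foxc1*, and in 13.7% of 32851 promoters. TATAAA was found in *Col3a1* and *Twist1*, and in 12.4% of all promoters. CCAAT was found in 4 of the 6 genes (*Col1a2*, *Twist1*, *Foxc1* and *Foxd1*), and in 33.9% of all promoters. The promoter of *Ptgds* held none of these letters. Base composition differed widely among the genes, from 35.2% G and C in *Col3a1*, with no CG pair, to 70.8% in *Foxc1*, with 29 CG pairs, against a median of 52.4% over all promoters. These matches describe the letters in this window only.

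In controls, *Col3a1* had the highest level per kb of the 10 genes in both areas, and *Foxc2*, *Twist1* and *Foxd1* had the lowest. Per kilobase of exon (GENCODE vM21), the level of *Col3a1*, the type III collagen chain, was 24.7 ± 4.59 CPM per kb in SP and 40.9 ± 5.03 CPM per kb in DMH (SD, n = 6 each). *Col1a1* and *Col1a2*, the chains of type I collagen, followed with 12.0 ± 1.99 and 9.63 ± 1.14 CPM per kb in SP, and 25.3 ± 5.37 and 22.4 ± 4.07 CPM per kb in DMH. Both type I chains overlapped in range in both areas. *Ptgds* changed its place in this order, at 2.90 ± 0.935 CPM per kb in SP, overlapping with *Foxc1*, and at 20.9 ± 8.12 CPM per kb in DMH, overlapping with *Col1a2*. *Lum* and *Dcn*, small proteoglycans that bind collagen fibrils, overlapped with each other in both areas, at 9.31 ± 2.20 and 6.80 ± 0.582 CPM per kb in SP. *Foxc1* was at 3.06 ± 0.142 CPM per kb in DMH, above *Foxc2*, *Twist1* and *Foxd1*, which were between 1.23 and 1.89 CPM per kb. The coefficient of variation over the 6 DMH controls was lowest for *Foxc1*, at 4.65%, and highest for *Ptgds*, at 38.8%. In SP controls it ran from 8.56% for *Dcn* to 32.2% for *Ptgds*.

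**Figure D1:**
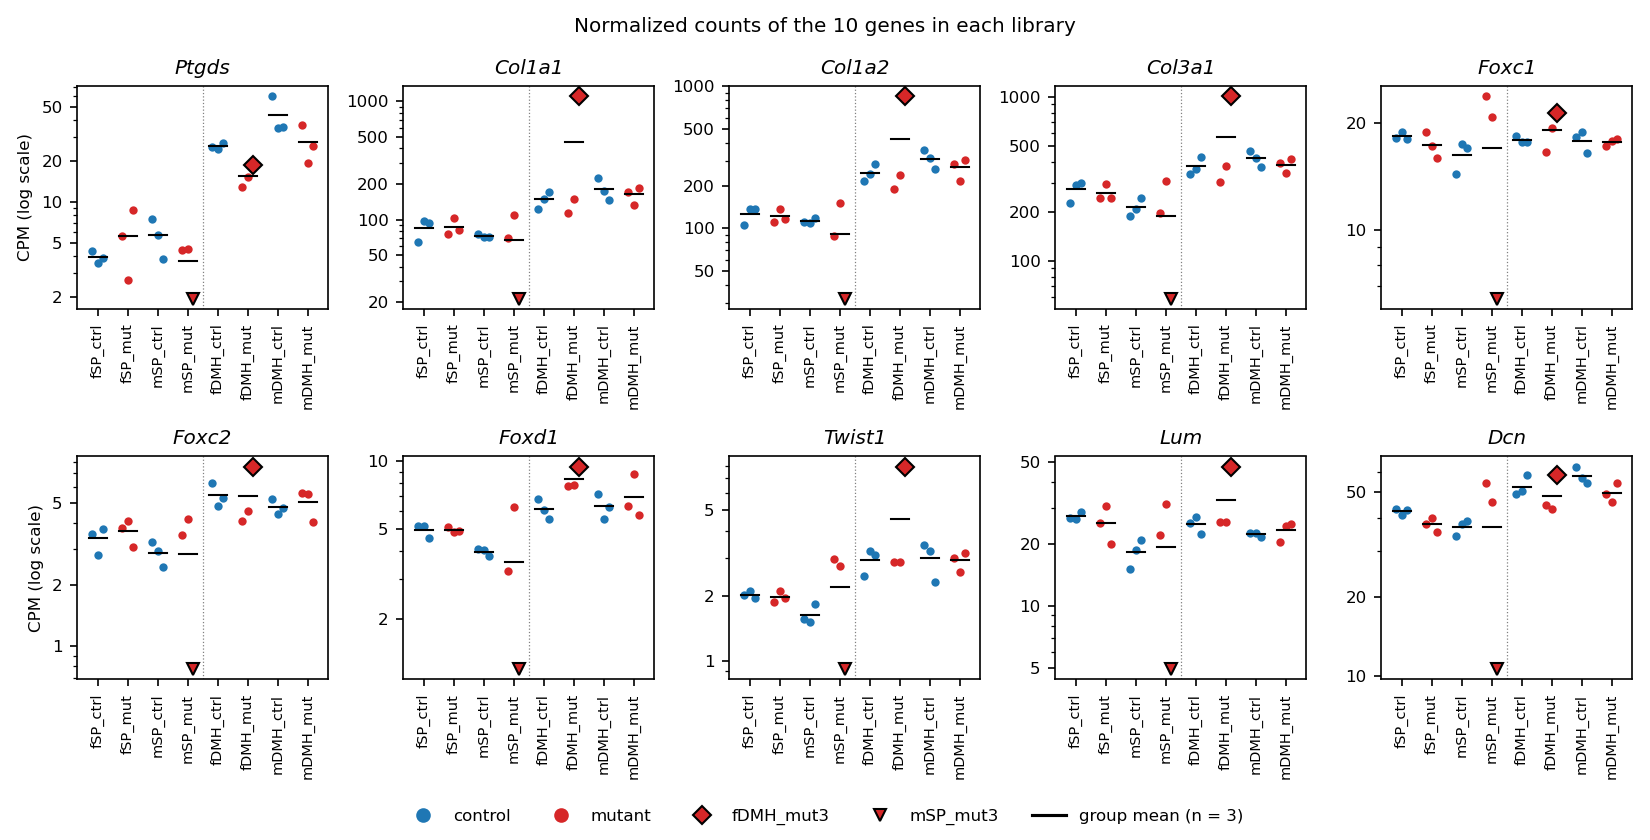
CPM on a log axis for each of the 10 genes in the 24 libraries, by sex (f, m), area and genotype, with blue points for controls, red points for mutants and a black line for the mean of 3 libraries. The diamond is female DMH mutant 3 and the triangle male SP mutant 3, which lies below every other SP library for all 10 genes.

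Most of the 10 genes had higher levels in DMH than in SP of control embryos, with *Ptgds* far ahead of the collagens. Of the 10 genes, 6 were upregulated in DMH and 0 were downregulated, where a call needs an FDR below 0.2 and a log2 fold change above 0.5 in size. Over all 17196 genes tested, 21.2% were called higher and 14.7% lower in DMH. For the 10 genes the median difference on the log2 scale was 0.71, and that of all genes was −0.0029. In 8 of the 10 genes every DMH control lay above every SP control, which held for 21.8% of 14180 genes with a median of at least 1 CPM. In these bulk samples, fewer cells of a type and less RNA per cell cannot be told apart.

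*Ptgds* was at 3.56, 4.08 and 7.50 CPM (lowest, median and highest) in the 6 SP controls and at 24.4, 30.9 and 60.1 CPM in the 6 DMH controls. On the log2 scale the difference was 2.83 (SE 0.19; adjusted p = 7.56e-08 in edgeR), and it was higher in DMH in 6 of 6 embryos. The ranges were far from touching, and male DMH control 1 was the highest library by a wide margin. *Col1a1* ran from 64.2 over 73.7 to 96.7 CPM in SP controls and from 124 over 161 to 227 CPM in DMH controls (log2 fold change 1.07, SE 0.16, edgeR adjusted p = 8.92e-05). *Col1a2* ran from 106 over 114 to 138 CPM in SP controls and from 216 over 273 to 356 CPM in DMH controls (log2 fold change 1.21, SE 0.12, edgeR adjusted p = 2.15e-06). Both type I chains thus differed by a similar factor. *Col3a1*, which polymerizes with type I collagen in soft tissue, had a smaller difference, with 187, 234 and 300 CPM in SP controls and 339, 400 and 471 CPM in DMH controls (log2 fold change 0.74, SE 0.12, edgeR adjusted p = 0.000184). The ranges of the 3 collagens did not overlap between areas.

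Among the transcription factors, *Foxc2* was at 2.45, 3.08 and 3.74 CPM in SP controls and at 4.44, 5.06 and 6.30 CPM in DMH controls (log2 fold change 0.73, SE 0.11, edgeR adjusted p = 2.12e-05). *Twist1*, a basic helix-loop-helix factor of head mesenchyme, was at 1.51, 1.89 and 2.11 CPM in SP controls and 2.32, 3.15 and 3.43 CPM in DMH controls (log2 fold change 0.69, SE 0.13, edgeR adjusted p = 0.000198). Both were higher in DMH in 6 of 6 embryos. *Foxd1* passed the FDR with a log2 fold change of 0.49 (SE 0.10), just under the limit of 0.5, and so did the proteoglycan *Dcn* with 0.48 (SE 0.07). Each was still higher in DMH in 6 of 6 embryos. *Foxc1*, the paralog of *Foxc2*, had nearly equal levels, 17.3 ± 1.58 CPM in SP and 17.9 ± 0.831 CPM in DMH (SD, n = 6 each) and a difference of 0.05 on the log2 scale (SE 0.06). *Lum* was at 22.8 ± 5.38 and 23.6 ± 2.19 CPM, with a log2 fold change of 0.08 (SE 0.09). For *Foxc1* and *Lum* the difference was within the spread between libraries, and neither passed the FDR.

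In mutants, with 5 embryos, 6 of the 10 genes were again called higher in DMH and 0 lower, where 20.3% of 17148 genes were called higher and 15.9% lower. The log2 fold changes were 2.45 (SE 0.33) for *Ptgds*, 1.24 (SE 0.33) for *Col1a2*, 0.98 (SE 0.34) for *Col1a1* and 0.75 (SE 0.33) for *Col3a1*. *Foxd1* was called with 0.81 (SE 0.31), and *Foxc2* with 0.54 (SE 0.33) at an edgeR adjusted p of 0.199, at the edge of the limit. The errors were larger than in controls. Every DMH mutant lay above every SP mutant for 3 genes, *Ptgds*, *Col1a1* and *Col1a2*, and in 20.1% of 14180 genes. Without the embryo of male mutant 3, whose SP library was low in all 10 genes, 4 were called (*Ptgds* 2.23, *Col1a1* 0.67, *Col1a2* 0.93 and *Foxd1* 0.65) and the median of the 10 genes went from 0.65 to 0.41. *Col3a1* was then at 0.46 and *Foxc2* at 0.35.

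**Figure D2:**
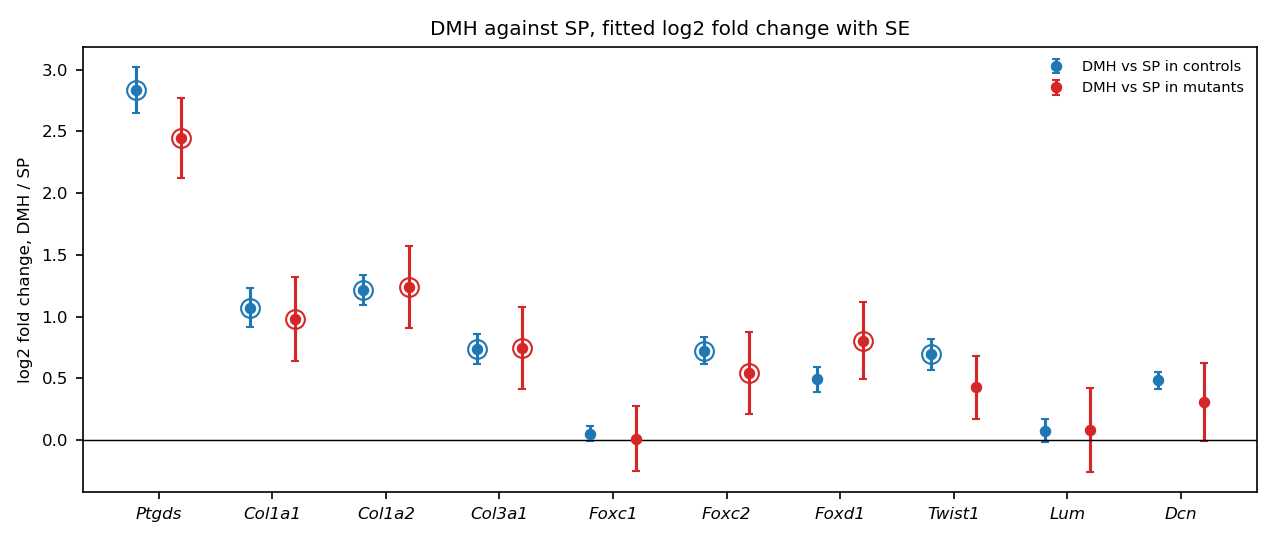
Fitted log2 fold change of DMH against SP for each gene, with SE as bars, in controls (blue, 6 embryos) and mutants (red, 5 embryos), where a ring marks a called gene. *Ptgds* is at 2.83 and 2.45, the collagens lie between 0.74 and 1.24, and *Foxc1* and *Lum* are near 0.

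Related gene lists in the same comparison gave a mixed picture, to be read against the 21.2% of all genes called higher and 14.7% called lower in DMH. Of 16 further genes of meningeal fibroblasts, 9 were called higher in DMH controls and 0 lower, with a median log2 fold change of 0.72. The largest were *Wnt6* (1.56, SE 0.24), a secreted ligand, *Ngfr* (1.53, SE 0.15), the p75 neurotrophin receptor that glia and neurons also express, and *Aldh1a2* (1.35, SE 0.23), which makes the retinoic acid that the meninges release. Of 19 other matrix genes of connective tissue, 9 were called higher and 0 lower (median 0.44), led by *Col14a1* (1.88, SE 0.32), *Thbs2* (1.74, SE 0.22) and *Col8a1* (1.30, SE 0.16). Of 15 genes for collagen processing and fibril assembly, 3 were called higher and 1 lower (median 0.17), and the share called higher was close to that of all genes. The 3 were *P4ha3*, a prolyl hydroxylase (1.91), *Adamts2*, which trims procollagen (1.19), and *Sparc*, a collagen-binding glycoprotein (0.50). *Loxl1*, a cross-linking oxidase, was lower in DMH, at −1.07.

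Of 23 transcription factors of mesenchyme and cranial neural crest, 22 were tested, 10 were called higher and 6 lower in DMH (median 0.29). Among those higher were *Lmx1b* (6.23), which hindbrain neurons also express, and *Meox2* (2.00), a factor of somite-derived mesenchyme. *Alx1* (−1.54) and *Tbx15* (−0.85), factors of face and skull mesenchyme, were among those lower in DMH. For other cell types the calls were 2 higher of 10 for mural cells (*Myh11* 1.08 and *Vtn* 1.05), close to the 21.2% of all genes, and 0 of 7 for endothelium. Their median log2 fold changes were 0.43 and 0.125. The summed levels of both lists were higher in every DMH control than in every SP control. Mural cells were at 370 to 416 CPM in DMH against 274 to 321 CPM in SP, and endothelium at 283 to 316 CPM against 238 to 280 CPM. Choroid plexus epithelium, the other source of *Ptgds*, had 5 higher of 10 (*Otx2* 2.07, *Kl* 1.78 and *Prlr* 1.73 the largest) and 0 lower. Its summed level was 314 to 564 CPM in SP controls and 533 to 774 CPM in DMH controls, and its part in the difference of *Ptgds* was not tested. *Otx2* alone had means of 19.7 CPM in SP controls and 83.6 CPM in DMH controls. Other genes of the list differed little. Without the pair of libraries that stood apart, medians over both genotypes in DMH and SP were 4.94 and 4.71 CPM for *Folr1*. They were 14.9 and 14.2 CPM for *Kcne2*, and 28.6 and 32.4 CPM for *Clic6*.

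Over the remaining lists, calls went in both directions. Of 5 skeletal muscle genes tested, 3 were higher (*Myh8* 5.23, *Myh3* 1.48, *Acta1* 0.94) and *Mylpf* was lower (−0.82), and of 4 cartilage genes 1 was higher (*Col11a2* 0.83). Of 4 bone genes, *Runx2* was higher (0.65) and *Alpl* lower (−0.55). Microglia had 1 higher of 5 (*Csf1r* 0.58), and erythroid cells 0 of 6. Of 5 genes of peripheral glia and pigment cells, 2 were called higher, among them *Sox10* (1.97), and *Dct* (−6.45), a pigment cell gene, was lower in DMH. Of 7 genes of neurons and neural progenitors, *Stmn2* (0.97) was higher, and *Pax6* (−1.25), *Nes* (−0.80) and *Sox2* (−0.65) were lower. All 11 caudal *Hox* genes were higher, with *Hoxa5*, *Hoxb8* and *Hoxb5* at 0 CPM in SP controls and at means of 68.4, 66.1 and 61.5 CPM in DMH controls. No gene of the epidermis list passed the filter on low counts here.

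Loss of *Tfap2b* was not accompanied by a called change in any of the 10 genes in DMH. In DMH of both sexes 0 of the 10 were called, and 0.0523% of 17223 genes were. In female DMH 0 of 10 were called against 0.00596% of all genes, and in male DMH 0 of 10 against 0.0236%. At such shares almost any 10 genes would give 0 calls, so these counts say little about the 10 genes. The paper reported more differentially expressed genes in female DMH at the same limits. At an unadjusted p under 0.05, 2 of the 10 genes passed in DMH of both sexes, *Ptgds* and *Dcn*, and 2590 of all genes did. The median log2 fold change of the 10 genes in both sexes was −0.13 and that of all genes −0.0025. Without the DMH libraries low in caudal *Hox* genes, which leaves no female mutant, the median of the 10 genes was −0.04.

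*Ptgds* had the largest log2 fold change of the 10 genes in size, with lower values in mutants. The 3 female DMH controls were at 25.3, 24.4 and 27.1 CPM, and the 2 female mutants at 12.9 and 15.2 CPM, so the groups did not overlap. Female mutant 3, outside the fit, was at 18.6 CPM, also below each control. In females the log2 difference was −0.88 (SE 0.11, edgeR adjusted p = 0.225). The 3 male DMH controls were at 60.1, 34.7 and 35.5 CPM, and the 3 male mutants at 36.8, 19.4 and 25.8 CPM. Male mutant 1 lay above the lower pair of controls, and males had −0.66 (SE 0.33, edgeR adjusted p = 0.870). Over both sexes it was −0.75 (SE 0.20, edgeR adjusted p = 0.327). With DESeq2 the gene was called in females (−0.88, adjusted p = 1.59e-06) and over both sexes (−0.76, adjusted p = 0.137), so the call depended on the test. With edgeR it was also called in females without the filter on low counts (−0.88, adjusted p = 4.28e-11), with unstranded counts (−0.86, adjusted p = 0.133), without control 1 (−0.89, adjusted p = 0.0227), without control 3 (−0.84, adjusted p = 0.0219) or without mutant 2 (−1.01, adjusted p = 0.143), and over both sexes without male mutant 1 (−0.91, adjusted p = 0.169). It was not called without female control 2 (−0.92, adjusted p = 0.641) or female mutant 1 (−0.76, adjusted p = 0.50) in females. Without male control 1, the highest library, it was −0.35 in males (adjusted p = 1.0) and −0.60 over both sexes (adjusted p = 0.508). Without the 4 DMH libraries that had little caudal *Hox* signal, which include both female mutants and 1 of the 3 male ones, it was at −0.45 (SE 0.31), a value that no longer covers female mutants. The only control among these libraries was female control 1, so without it *Hox* signal separated female controls from female mutants. Without male mutant 1, male mutant 3 was the only mutant in the fit with such signal. The choroid plexus list summed to 533 to 774 CPM in the DMH controls and to 230 to 762 CPM in the 5 mutants. The median log2 fold change of its 10 genes was −0.80 in female DMH and 0.10 in male DMH, and its part was not tested.

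*Dcn*, decorin, which binds collagen and growth factors, had lower values in DMH mutants than in controls of the same sex with no overlap, and was not called. Female controls were at 49.3, 50.5 and 58.1 CPM, and the 2 female mutants at 44.7 and 43.2 CPM. Male controls were at 62.7, 56.8 and 54.4 CPM, and male mutants at 49.4, 46.0 and 54.2 CPM. The difference was small, with a log2 fold change of −0.24 over both sexes (SE 0.06, edgeR adjusted p = 0.327). In female mutant 3, *Dcn* was at 58.1 CPM, within the range of the controls. In female DMH 3 genes (*Ptgds*, *Foxc2* and *Dcn*) had both mutants below all controls, which held for 10.7% of 14180 genes. *Foxd1* had both mutants above, at 7.74 and 7.88 CPM against 6.83, 6.11 and 5.54 CPM, which held for 16.2% of genes. Its log2 fold change over both sexes turned negative without the DMH libraries low in caudal *Hox* genes. In male DMH only *Dcn* of the 10 genes had all mutants below all controls, against 3.63% of genes, and none had all mutants above.

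The collagens of DMH differed by less than the spread between libraries. *Col1a1* was at 124, 150 and 173 CPM in female controls and 114 and 150 CPM in the 2 female mutants, and at 227, 175 and 147 CPM in male controls and 171, 132 and 187 CPM in male mutants. Over both sexes its log2 fold change was −0.18 (SE 0.15), that of *Col1a2* −0.22 (SE 0.12) and that of *Col3a1* −0.15 (SE 0.09). With female mutant 3 in the fit, the signs turned to 0.73, 0.29 and 0.22. *Foxc1* (−0.01, SE 0.06), *Twist1* (−0.03, SE 0.13) and *Lum* (0.04, SE 0.06) had log2 fold changes smaller than their errors. *Foxc2* was at −0.10 (SE 0.12), and *Foxd1*, a forkhead factor of mesenchyme and of the embryonic diencephalon, at 0.22 (SE 0.11, edgeR adjusted p = 0.349).

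The lists gave 0 calls in either direction in DMH of both sexes, for all 15 lists that had a tested gene. Median log2 fold changes were −0.09 for further meningeal fibroblast genes, −0.16 for other matrix genes, −0.01 for collagen processing and 0.14 for mesenchyme transcription factors. They were −0.38 for choroid plexus, −0.37 for peripheral glia and pigment cells, and −1.81 for caudal *Hox* genes. By sex the medians were −0.80 in females and 0.10 in males for choroid plexus, and −0.80 and −0.18 for peripheral glia and pigment cells, and the difference between sexes was not tested. Caudal *Hox* genes summed to 0.0380, 320 and 483 CPM in female DMH controls 1, 2 and 3 and to 0.331 and 0.106 CPM in female mutants 1 and 2. In the other 8 lists, mural cells, endothelium, skeletal muscle, cartilage, bone, erythroid cells, microglia and neurons, the medians lay between −0.07 and 0.15.

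**Figure D3:**
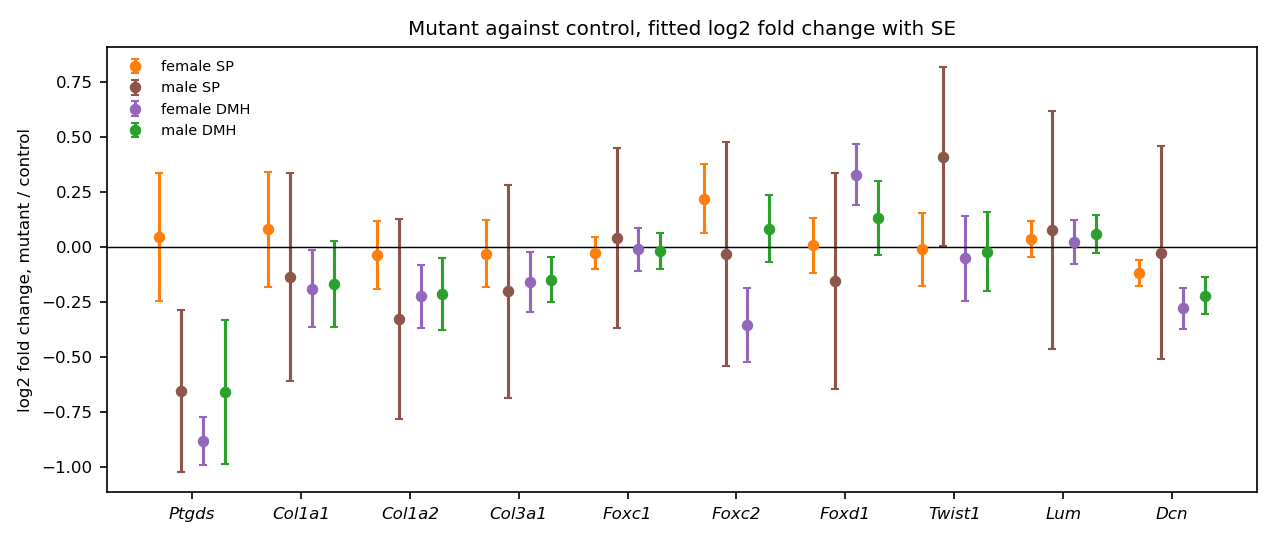
Fitted log2 fold change of mutants against controls for each gene, with SE as bars, in female SP, male SP, female DMH and male DMH. No gene was called. *Ptgds* is lowest in female DMH, at −0.88, and the bars of male SP are the widest.

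In SP, 0 of the 10 genes were called in females, males or both sexes, where 0.0181%, 0% and 0% of all genes were. At an unadjusted p under 0.05 the counts were 428, 605 and 861 of all genes and 0 of the 10 genes in each. DESeq2 called 9, 7 and 26 genes there and again 0 of the 10. In female SP the log2 fold changes lay between −0.12 for *Dcn* and 0.22 for *Foxc2*. *Dcn* was at 43.3, 41.1 and 42.8 CPM in controls and at 38.0 and 40.0 CPM in mutants, which did not overlap, as in 7.65% of 14180 genes. *Foxc2* had both mutants, at 3.79 and 4.08 CPM, above the controls at 3.56, 2.80 and 3.74 CPM, as in 6.89% of genes.

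Male SP was dominated by the spread among mutants. Male SP mutant 1 had 9.98% unmapped fragments, against 5.46% to 7.05% in all other libraries. Its fragments that mapped to several places made up 7.85%, against at most 5.81% elsewhere. It stayed in the fits and was the highest SP library for *Foxc1*, *Twist1* and *Dcn*, so values without mutant 3 rest in part on it. *Col1a1* was at 75.9, 71.3 and 71.4 CPM in male controls and at 70.1, 109 and 21.5 CPM in male mutants 1, 2 and 3. *Foxc1* was at 14.3, 17.5 and 16.9 CPM in controls and at 23.7, 20.7 and 6.44 CPM in mutants. *Twist1* was at 1.57, 1.51 and 1.84 CPM in controls and at 2.96, 2.74 and 0.915 CPM in mutants. Mutants 1 and 2 lay above the male controls for *Foxc1* and *Twist1*, and mutant 3 below. *Ptgds* was at 7.50, 5.72 and 3.78 CPM in controls and at 4.45, 4.52 and 1.94 CPM in mutants, with the largest log2 fold change in size of the 10 genes in male SP, −0.65 (SE 0.37, edgeR adjusted p = 0.967). Without mutant 3 it was −0.32 (SE 0.30). The choroid plexus list had a median log2 fold change of −0.86 in male SP and −0.51 in SP of both sexes, and its part was not tested. Without male SP mutant 3 the median log2 fold change of the 10 genes in male SP went from −0.08 to 0.38, and in SP of both sexes from −0.03 to 0.19, with 0 of the 10 called. *Twist1* was then highest in male SP, at 0.81 (SE 0.23, edgeR adjusted p = 0.726).

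No difference in the effect of genotype between DMH and SP was called for any of the 10 genes. In the test of the interaction 0 of the 10 were called, and 0.00565% of 17684 genes were, which was *Tfap2b* alone. The largest interaction in size was −0.39 for *Ptgds* (SE 0.36, edgeR adjusted p = 0.999). Without the embryo of male mutant 3 it was −0.61 (SE 0.34, edgeR adjusted p = 0.872).

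In female DMH mutant 3 the 10 genes were not raised alike. *Col1a1* was at 1105 CPM, against 114 to 227 CPM in the other 11 DMH libraries, which is 7.37 times their median. *Col1a2* was at 852 CPM against 189 to 356 CPM (3.25 times), and *Col3a1* at 1010 CPM against 304 to 471 CPM (2.65 times). *Twist1* was at 7.93 CPM against 2.32 to 3.43 CPM (2.64 times) and *Lum* at 47.6 CPM against 20.6 to 27.2 CPM (1.95 times). The collagens and these genes were thus far outside the range of the other libraries. *Foxc2* at 7.56 CPM, *Foxd1* at 9.47 CPM and *Foxc1* at 21.3 CPM were above the others by less, at 1.56, 1.49 and 1.20 times the median. *Dcn* at 58.1 CPM and *Ptgds* at 18.6 CPM, 1.15 and 0.72 times the median, were within the range of the others. In all, 8 of the 10 genes lay above the other 11 libraries, and 10.1% of 14422 genes with a median of at least 1 CPM did. The same 8 lay above every DMH control, as did 12.8% of these genes, and nothing is read from either count, since the genes were selected on this library. The share of *Col1a1* in the sum of the 10 genes was 35.2% in this library and 15.2% to 18.4% in the others of DMH.

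The same library held transcripts of other tissues. The 8 skeletal muscle genes summed to 676 CPM against 5.84 to 8.53 CPM in the other DMH libraries, and all 8 were above the others, with *Myh3* at 238 CPM and *Acta1* at 156 CPM. The 7 cartilage genes summed to 2074 CPM against 71.3 to 93.2 CPM, with *Col2a1* at 1290 CPM, and the 6 bone genes to 151 CPM, 12.0 times the median of the others, with *Ibsp* at 100 CPM. All 15 genes of collagen processing and 18 of the 19 other matrix genes were above the other libraries. Of the 16 further meningeal genes 5 were above and 5 below, where 10.1% of all genes were above and 13.2% below. *Igf2*, a growth factor, was at 117 CPM against 25.8 to 36.8 CPM, while *Slc22a6* and *Slc6a13*, transporters of the arachnoid and pia, were at 9.63 and 13.2 CPM, under the lowest of the others. Of the 23 mesenchyme transcription factors 10 were above and 6 below. *Tbx15* was at 16.3 CPM against 1.91 to 3.27 CPM and *Meox2* at 11.4 CPM against 0.781 to 1.36 CPM, while *Tbx18* was at 7.90 CPM against 11.4 to 15.7 CPM and *Msx1* at 4.95 CPM against 7.65 to 10.3 CPM. The epidermis list summed to 1.17 CPM against 0.107 to 0.446 CPM. Mural cells (419 CPM), choroid plexus (283 CPM), erythroid cells (390 CPM), peripheral glia and pigment cells (16.4 CPM), endothelium (282 CPM) and caudal *Hox* genes (410 CPM) were within the range of the others, except that mural cells lay just above its upper end of 416 CPM. Microglia (48.4 CPM) and neurons (5066 CPM) were below the lowest of the others. What share of the collagen counts these tissues gave was not tested.

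**Figure D4:**
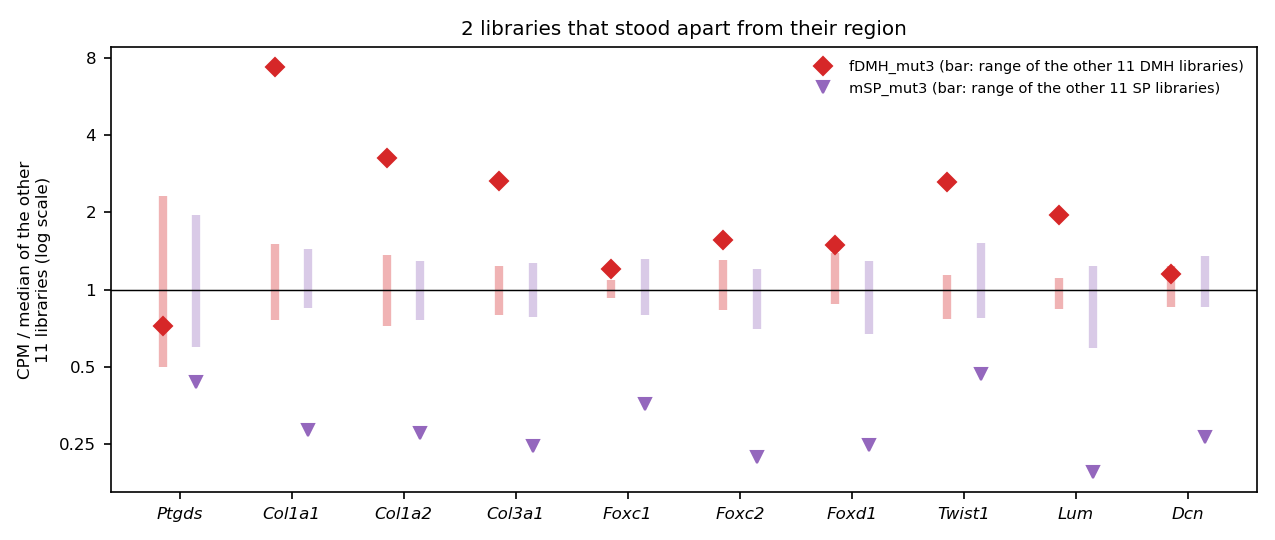
CPM of each gene divided by the median of the other 11 libraries of the same area, on a log axis, for female DMH mutant 3 (diamonds) and male SP mutant 3 (triangles), with pale bars for the range of those 11 libraries. *Col1a1* is highest, at 7.37, while *Ptgds* and *Dcn* of female DMH mutant 3 stay within the bars and all 10 triangles lie below theirs, from 0.194 for *Lum* to 0.469 for *Twist1*.

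Male SP mutant 3 was low in all 10 genes, to differing degrees. The ratios to the median of the other 11 SP libraries lay between 0.194 for *Lum* and 0.469 for *Twist1*, with a median of 0.270. All 10 genes were below every other SP library, and 11.6% of 14021 genes were. The collagens stood at 21.5 CPM for *Col1a1* (64.2 to 109 CPM in the others), 32.0 CPM for *Col1a2* (88.9 to 151 CPM) and 59.0 CPM for *Col3a1* (187 to 305 CPM). Their share of the summed level was 80.8%, within the 75.7% to 84.0% of the other SP libraries. *Dcn* was at 10.6 CPM (34.3 to 54.1 CPM), *Lum* at 4.93 CPM (15.1 to 31.3 CPM) and *Foxd1* at 1.20 CPM (3.25 to 6.26 CPM). The sum was low while the proportion of collagen in it was that of the other libraries.

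Other coverings and vessels were low there too. The choroid plexus list summed to 43.5 CPM against 221 to 564 CPM, the further meningeal genes to 104 CPM against 216 to 269 CPM, and the mesenchyme transcription factors to 36.6 CPM against 74.4 to 96.3 CPM. Other matrix genes summed to 278 CPM (at least 436 CPM), collagen processing to 463 CPM (531 to 723 CPM), mural cells to 231 CPM (274 to 325 CPM), endothelium to 169 CPM (238 to 282 CPM) and peripheral glia and pigment cells to 13.3 CPM (14.9 to 22.7 CPM). Skeletal muscle, cartilage, bone, epidermis, erythroid cells and microglia were within the range of the others. Neurons and neural progenitors, at 5297 CPM, were slightly above the others at 4470 to 5284 CPM. The DMH library of the same embryo summed to 1044 CPM for the 10 genes, within the range of the other DMH libraries.

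**Figure D5:**
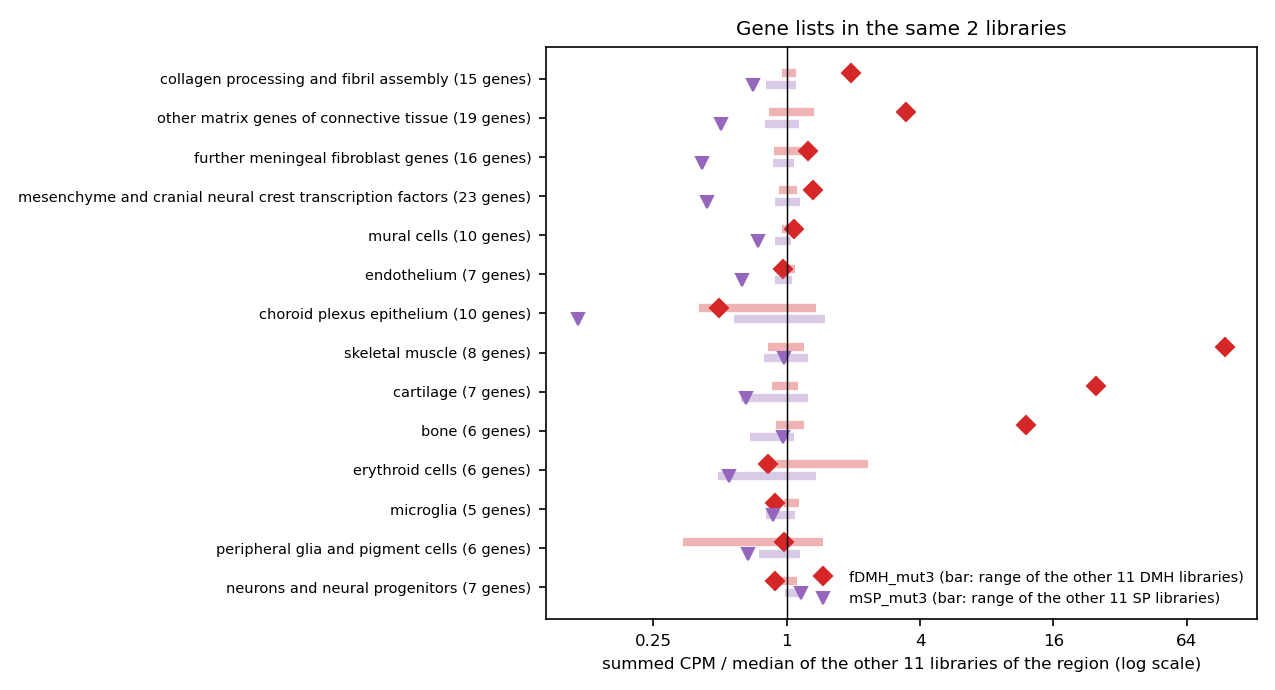
Summed CPM of 14 gene lists in female DMH mutant 3 (diamonds) and male SP mutant 3 (triangles), divided by the median of the other 11 libraries of the area, on a log axis, with pale bars for the range of those libraries. Skeletal muscle, cartilage and bone are far to the right for female DMH mutant 3, and choroid plexus and the meningeal and mesenchymal lists to the left for male SP mutant 3.

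Across libraries, the 3 collagens followed each other in both areas. For correlations the limit was an adjusted p below 0.05. Over the 11 DMH libraries without female mutant 3, *Col1a1* had a Pearson r of 0.98 with *Col1a2* and 0.97 with *Col3a1* on log2(CPM + 0.5), and Spearman rho of 0.95 and 0.94 (two-sided permutation test with 100000 resamples, adjusted p of r = 0.00036 for both over 18 relations). Without the 2 libraries farthest from the median of *Col1a1*, r was 0.95 and 0.94. *Twist1* (r = 0.71, rho = 0.82, permutation test, adjusted p of r = 0.0265) had an r of 0.76 without them. *Dcn* (r = 0.78, rho = 0.75, permutation test, adjusted p = 0.0128) and *Ptgds* (r = 0.78, rho = 0.66, permutation test, adjusted p = 0.0137) went to 0.58 and 0.41. *Foxc1* (r = 0.32), *Foxc2* (−0.07), *Foxd1* (−0.47) and *Lum* (−0.48) did not pass, with adjusted p of r of 0.174 for the last pair. With CPM by total counts *Foxc1* had an r of 0.65 and just passed (permutation test, adjusted p of r = 0.0495).

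Over the 12 SP libraries, r with *Col1a1* was 0.98 for *Col1a2* and 0.97 for *Col3a1*, with rho of 0.93 and 0.83, and 0.85 and 0.80 without the 2 farthest libraries, male mutants 2 and 3. For the other 7 genes r was 0.42 to 0.93, with rho of 0.05 to 0.63. Of these *Lum*, *Foxd1*, *Foxc2* and *Twist1* passed at adjusted p of 0.0128 to 0.0428 in the permutation test, and none of the 7 passed that limit for rho, where the lowest adjusted p was 0.0724 for *Lum*. Without those libraries r was −0.44 to 0.49, so these relations rest on them. Over the 45 pairs of the 10 genes, with each gene centred within area, the median r was 0.79 over 23 libraries and 0.24 without male SP mutant 3. The genes whose pattern was most like the 10, by mean r over 23 libraries among 14099 others, were *Gpc3* (0.85), *Col6a2* (0.84), *Islr* (0.83), *Serpinf1* (0.82), *Cped1* (0.82) and *Gjb2* (0.82). Without male SP mutant 3 *Gpc3* (0.52) and *Col6a2* (0.50) were still the 2 highest, and the other 4 ranked from 17 to 107. These are correlations across libraries that share depth and dissection, and they are given as a description.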

How the data were processed

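PolyA RNA of 24 samples (SP and DMH of 12 embryos) was sequenced as stranded paired-end libraries. The authors trimmed reads with cutadapt 2.4 and aligned them to GRCm38.p6 with STAR 2.6.1d, per the labels. The deposited tables hold raw counts per Ensembl gene in 3 strand columns, of which the reverse-stranded counts were used. Lines that name no gene held 17.3% to 25.9% of fragments and were left out of library sizes. Of 54446 identifiers 54409 had a mouse symbol. No table column belonged to other samples.

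Counts were tested with edgeR 4.0.16 in R 4.3.3 (filterByExpr, TMM, robust quasi-likelihood test, Benjamini-Hochberg over all tested genes), each comparison on its own libraries. A gene was called at FDR below 0.2 and a log2 fold change above 0.5 in size, and SE is the fold change divided by the root of F. The scripts were tested on simulated data. Female mutant 3 was left out, as in the study. DESeq2 1.42.0, other scaling, no filter, unstranded counts, FDR 0.05, a replicate or embryo block, each embryo left out and the removal of 4 DMH pieces low in caudal *Hox* genes were tried as alternatives. SP and DMH of a number were taken to come from the same embryo, which rests on the shared number (r of their deviations 0.045 to 0.319). Equal numbers were not taken to pair controls with mutants (r −0.167 to 0.186). The 2 ranges of r overlap, so r does not settle either pairing.

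The 10 genes and 16 gene lists (160 symbols) were chosen with earlier results of these data known. The text names all 10 genes, up to 3 genes per list and direction with the largest called DMH against SP difference in controls, and the 6 genes most like the 10, except that some genes are not reported here. Other genes in the descriptions of single libraries were picked after their values were seen. Correlations used log2(CPM + 0.5). A count of 3 fragments is 0.0449 to 0.121 CPM. Reads from *Col1a2*, *Col3a1* and *Foxc2* overlap with annotated genes on the same strand.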

Additional observations from a re-analysis of the deposited data

Results flagged for a closer look

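A library that stood apart from the other 5 of its area and genotype was found in 7 of 40 sets of 6 libraries (10 genes in 4 sets). Chance gives about 5% of sets, a rate that does not hold for the 5 cases of female DMH mutant 3, since the genes were selected on this library. Its values are a description, with *Col1a1* at 1105 CPM, *Col1a2* at 852 CPM, *Col3a1* at 1010 CPM, *Twist1* at 7.93 CPM and *Lum* at 47.6 CPM. In SP mutants *Foxc2* of male mutant 3 stood apart at 0.775 CPM, with the others at 3.07 to 4.20 CPM. In DMH controls *Ptgds* of male control 1 stood apart at 60.1 CPM, with the others at 24.4 to 35.5 CPM.

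Female DMH mutant 3, which was left out of the reported comparisons, lay above every DMH control in 8 of the 10 genes, as it did in 12.8% of 14422 genes. Beside the 5 values above these were *Foxc1* at 21.3 CPM, *Foxc2* at 7.56 CPM and *Foxd1* at 9.47 CPM. Nothing is read from this count.

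*Foxc2* had opposite directions in the female areas. Both female SP mutants in the fit were above all controls (log2 fold change 0.22) and both female DMH mutants below all controls (−0.35). The difference within females was not tested, and in the test over both sexes the interaction was −0.17 (SE 0.33, edgeR adjusted p = 0.999). Female mutant 3 was within the range of the female controls in SP, at 3.07 CPM, and above it in DMH, at 7.56 CPM.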

How the results depend on the processing

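Between areas, 6 to 8 of the 10 genes were called higher in DMH controls over the alternatives. In mutants, where 6 were called, 3 were at FDR 0.05, 4 without a filter, 4 without the DMH pieces low in caudal *Hox*, 7 with female mutant 3, and 4 to 6 with an embryo left out. In DMH genotype comparisons the count of the 10 genes called went from 0 to 1, always *Ptgds*, in females without a filter, with unstranded counts, with DESeq2 and with the replicate block, in males with the replicate block, and over both sexes with DESeq2 and with the replicate block.

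Counts over all genes moved more. Without a filter 25 genes were called in females and 1 in males for SP, 535 and 17 for DMH, and 12 in SP of both sexes. With DESeq2 they were, in this order, 9, 7, 82, 15 and 26, and 56 in DMH of both sexes. With unstranded counts they were 4 in female DMH and 4 in DMH of both sexes, and at FDR 0.05 they were 1 in female SP and 2 in DMH of both sexes. With female mutant 3 they were 0 in female SP, 1 in SP of both sexes and 5 in DMH of both sexes. Without the 4 DMH pieces low in caudal *Hox* they were 7 in male DMH and 4 in DMH of both sexes.

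With the replicate block the counts were 71 (SP of females), 41 (DMH of females) and 8 (DMH of males), and *Ptgds* was at −0.84 in females (edgeR adjusted p = 0.00947), −0.67 in males (0.112) and −0.73 over both sexes (0.00970). Nothing states that a control and a mutant of equal number belong together (r of deviations of control and mutant −0.167 to 0.186), so the block has no stated basis in the design. With the embryo as block between areas no call of the 10 genes changed.

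Leaving out each embryo in turn gave 1 to 6 genes called for SP of females and 0 to 8 for SP of males, 0 to 1117 for DMH of females and 3 to 16 for DMH of males, 0 to 3 for SP and 2 to 531 for DMH over both sexes, and 1 to 5 for the interaction. The highest counts, 1117 and 531, came without female control 1 and without male mutant 1. Without female control 1, caudal *Hox* genes summed to at least 320 CPM in the female DMH controls left. They summed to at most 0.331 CPM in female mutants 1 and 2, so genotype and *Hox* signal cannot be told apart in that fit. Male DMH mutant 1 was at 392 CPM, and of the mutants left only male mutant 3, at 450 CPM, had such signal. Of the 10 genes 0 to 1 were called in female DMH and in DMH of both sexes.

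Signs turned only in values that were not called. With female mutant 3, DMH over both sexes gave 0.73 for *Col1a1*, 0.29 for *Col1a2*, 0.22 for *Col3a1*, 0.0374 for *Foxc1*, 0.0366 for *Foxc2* and 0.32 for *Twist1*, and female DMH gave 1.63 for *Col1a1*, 0.80 for *Col1a2*, 0.58 for *Col3a1*, 0.09 for *Foxc1* and 0.66 for *Twist1*. Without the 4 pieces low in caudal *Hox*, which leaves no female mutant, *Foxc2* was at 0.0333, *Foxd1* at −0.0533 and *Twist1* at 0.0653. Without male mutant 3 the sign turned in male SP for *Col1a1* (0.32), *Col1a2* (0.11), *Col3a1* (0.25), *Foxc2* (0.45), *Foxd1* (0.28) and *Dcn* (0.45), and in SP of both sexes for *Col1a1* (0.20), *Col1a2* (0.04), *Col3a1* (0.12), *Foxd1* (0.15) and *Dcn* (0.17). In the other comparisons, with one embryo left out in turn, values that changed sign ran from −0.4039 to 0.0004 for *Col1a1* in female DMH, from −0.0532 to 0.0235 for *Foxc1* and −0.1226 to 0.0231 for *Twist1* in DMH of both sexes, from −0.0054 to 0.0909 for *Foxc1* and −0.0158 to 0.1662 for *Lum* between areas in controls, and from −0.1722 to 0.1896 for *Foxc1* and −0.1844 to 0.3141 for *Lum* between areas in mutants. With CPM by total counts, r of *Col1a1* in DMH was 0.0627 with *Foxc2* and 0.65 with *Foxc1* (adjusted p = 0.0495), and in SP 0.78 with *Twist1* (adjusted p = 0.0528). The causes of these changes were not tested.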
